A study of Rattus norvegicus with 60 samples.

Results

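Liver messenger RNA of male F344/N rats given 20 mg/kg per day of N,N-dimethyl-p-toluidine (DMPT) was set against that of rats given the corn oil vehicle alone. The comparison took the 5 arrays titled for 20 mg/kg DMPT and the 5 titled for the DMPT vehicle, 10 of the 60 arrays of the study, over 31042 probe sets. In both groups the rats were 5 to 6 weeks old at the start, were housed 2 to a cage, and received 2.5 ml/kg by oral gavage on 5 consecutive days. The study also holds groups of 5 arrays at 1, 6, 60 and 120 mg/kg DMPT, and the same doses with a vehicle of their own for p-toluidine. The labels number the arrays within a group but tie none to an animal or cage, so the p-values below measure the spread between these samples. All levels are log2 expression values, and differences are 20 mg/kg minus vehicle on that scale, given with the standard error of the limma fit.

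DMPT is an aromatic tertiary amine that speeds the curing of acrylic cements, and p-toluidine carries the same ring with a bare amino group. The liver oxidises such amines at the nitrogen and on the ring, and the reactive products are captured by glutathione, a tripeptide thiol that the glutathione S-transferases couple to electrophiles. Many of these transferases, with the enzymes that supply glutathione, are targets of NRF2 (the product of Nfe2l2), a transcription factor that is held inactive by KEAP1 until electrophiles or oxidants modify it. Gstp1 in particular is scarce in normal rat hepatocytes and is a classical marker of altered hepatic foci.

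The arrays of both groups were alike in their overall values. Array medians ran from 3.54 to 3.57, and the mean correlation with the other arrays of the same group ran from 0.9943 to 0.9955 at 20 mg/kg and from 0.9940 to 0.9952 in vehicle. Hepatocyte genes, among them albumin and transthyretin, had group means of 11.23 or more, as the label liver implies. The beta-actin 3′ minus 5′ difference, a gauge of RNA integrity, was 1.30 ± 0.12 at 20 mg/kg and 1.48 ± 0.15 in vehicle (SD, n = 5 each; two-sided exact permutation p = 0.0635, adjusted p = 0.127 over 2 gauges).

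At an adjusted p of at most 0.05, the threshold for a call throughout, 810 probe sets (2.61%) differed, 484 of them higher (1.56%) and 326 lower (1.05%). A change of at least 1.5-fold was called for 192 probe sets (0.619%), 138 higher and 54 lower. With the beta-actin gauge as a covariate the number was 814, but the split turned to 323 higher and 491 lower. The 1.5-fold set then held 110 higher and 90 lower. The 810 became 472 without 20 mg/kg replicate 2, 479 without its replicate 4 and 499 without vehicle replicate 3, and 1627 with array weights. With 1 probe set for each of 14217 genes, 247 genes (1.74%) rose and 227 (1.6%) fell, with a median change over all genes of −0.01. Just inside the threshold stood Evi5 (0.30, adjusted p = 0.0498) and Abhd8 (−0.32, 0.0499), and just outside it Chek1 (−0.52, 0.0520) and Szrd1 (−0.31, 0.0521).

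For 3 of the gene groups described here, promoters are shown with the short motif by which each group is best known. The window was 250 bases before to 50 bases after the annotated start in RefSeq (assembly GRCr8), read on both strands, for 11700 of the genes tested. The core of the antioxidant response element, TGACNNNGC, is the NRF2 site. It was present in 6 of 17 glutathione S-transferase promoters (35.3%), against 14.4% of all promoters, 16.1% of those of genes that rose and 14.2% of those of genes that fell. No match before the start was found for the transferases Gstt3, Gstm1 and Gsta4, which rose, while Scd, Mup5 and Urah, which fell, had one. The stretches below carry the core in capitals. They lie at chr1:210769733-210769791 (minus strand) for Gstp1 and at chr9:31154947-31154988 (plus strand) for Gsta3. That of Gclm, an NRF2 target but no transferase, lies at chr2:213031938-213031996 (plus strand), with the match on the other strand.
Gstp1: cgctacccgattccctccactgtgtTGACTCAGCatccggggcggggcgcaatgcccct
Gsta3: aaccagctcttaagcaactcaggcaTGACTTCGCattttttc
Gclm: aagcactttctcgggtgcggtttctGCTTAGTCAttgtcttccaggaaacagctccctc

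The E2F core TTTNNCGC, bound by regulators of DNA replication genes, was found in 11 of 34 cell cycle promoters (32.4%), against 7.63% of all promoters. It was in 8.26% of promoters of genes that rose and 10.2% of those of genes that fell. The minichromosome maintenance genes, which encode the replicative helicase, are shown because they were the members of the cell cycle group that fell. Their stretches lie at chr19:13488575-13488632 (plus strand) for Mcm5, chr13:42404459-42404516 (minus strand) for Mcm6 and chr12:22163198-22163255 (minus strand) for Mcm7. In Mcm5 and Mcm6 a second match on the other strand overlaps the one in capitals.
Mcm5: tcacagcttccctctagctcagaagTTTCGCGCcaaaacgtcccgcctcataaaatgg
Mcm6: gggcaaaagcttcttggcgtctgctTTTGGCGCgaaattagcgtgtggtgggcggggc
Mcm7: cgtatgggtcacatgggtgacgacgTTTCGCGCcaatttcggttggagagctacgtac

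The heat shock core GAANNTTC, a palindrome and so the same on both strands, was in 10 of 16 heat shock promoters (62.5%), against 5.9% of all promoters. It is shown for Hsph1 at chr12:10427312-10427367 and for Hspb8 at chr12:45837260-45837307, both on the plus strand and both genes that fell. The core was in 8.72% of promoters of genes that rose and 8.12% of those of genes that fell. Each match describes these letters in this window and does not show that a factor was bound.
Hsph1: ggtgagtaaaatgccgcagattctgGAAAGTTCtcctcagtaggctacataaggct
Hspb8: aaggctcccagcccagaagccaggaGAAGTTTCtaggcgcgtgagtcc

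Many glutathione S-transferase genes rose. Of 20 measured, 9 rose and none fell, with a median change of 0.31, in a list chosen with earlier results known. Among all genes 1.74% rose and 1.6% fell. Gstp1 read 9.37, 10.55, 11.01, 10.81 and 9.62 in the 20 mg/kg arrays, against 5.65, 6.37, 5.72, 6.53 and 6.30 in the vehicle arrays. Its lowest dosed array lay above its highest vehicle array, and the difference was 4.16 ± 0.34 (adjusted p = 7.53e-09). Gstt3, a theta-class enzyme, read 10.06, 10.11, 9.98, 9.48 and 9.34 against 7.48, 7.61, 8.27, 8.25 and 8.59 in vehicle, also without overlap (1.76 ± 0.21, adjusted p = 7.06e-06). Gstm1, an abundant mu-class enzyme, read 12.15, 12.10, 12.24, 12.13 and 11.95 at 20 mg/kg and 11.41, 11.49, 11.41, 11.38 and 11.27 in vehicle. Its groups were tight and did not overlap (0.72 ± 0.08, adjusted p = 4.82e-06). Gsta4, which acts on lipid peroxidation aldehydes, rose by 0.65 ± 0.10. Gsta3 rose by 1.40 ± 0.39, but its groups overlapped, and its adjusted p was 0.0482 over all arrays and 0.175 with vehicle replicate 2 left out. Gstm3 (0.62), Gstm2 (0.48), Gsta1 (0.39) and Mgst2 (0.38) also rose and were named after their values were seen. Gstm4 (−0.23), Gstk1 (0.10), Gsto1 (0.09) and the microsomal Mgst1 (0.01) were not called. Close copies exist within these classes, so a probe set may read more than 1 of them.

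**Figure D1:**
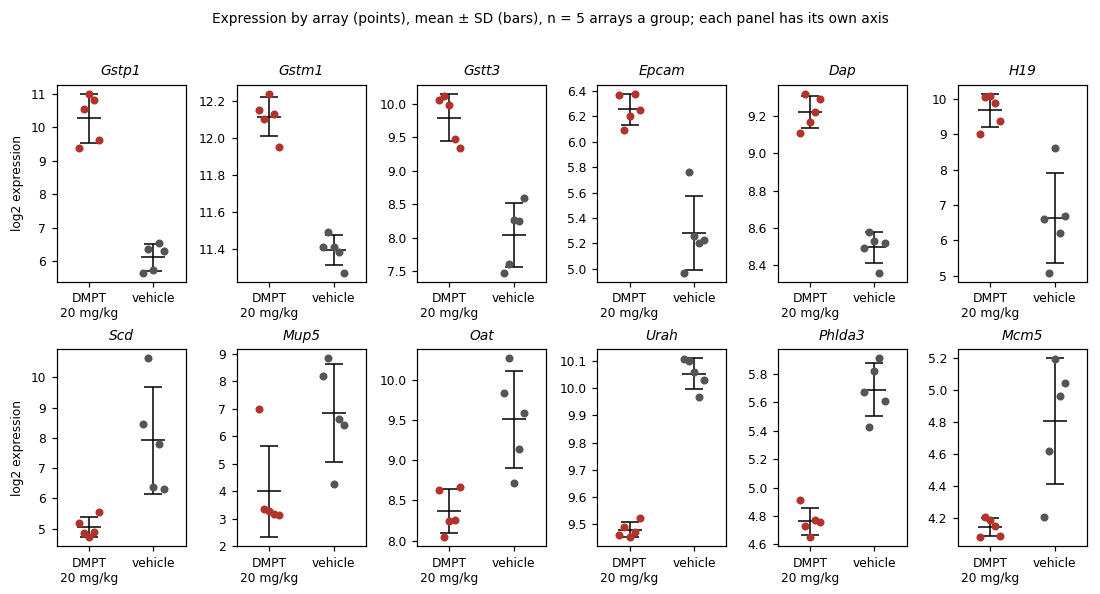
Log2 expression of 12 genes in each array, with 20 mg/kg DMPT (5 arrays) left of vehicle (5 arrays), and the group mean with its standard deviation as bars. Gstp1 lies between 9.37 and 11.01 at 20 mg/kg and between 5.65 and 6.53 in vehicle, and in Mup5 replicate 1 of the dosed group, at 6.98, stands apart from the other dosed arrays.

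Beyond the transferases, the NRF2 targets split. Of 30 measured, 9 rose and none fell (median 0.24), where 1.74% of all genes rose and 1.6% fell. Of the 9 that rose, 4 were transferases already counted. Gpx2, a selenium-dependent glutathione peroxidase, rose by 0.89 ± 0.20, reading 4.89 to 5.43 at 20 mg/kg and 3.69 to 4.81 in vehicle without overlap. Abcc3, an exporter of conjugates into blood, rose by 1.64 ± 0.28 (6.20 to 6.93, against 3.76 to 6.23 in vehicle). Ptgr1 (0.66) and Ces2c (0.48), outside the naming rule, also rose. Gclm, the modifier subunit of the enzyme that limits glutathione synthesis, rose by 0.48 ± 0.09, reading 9.12 to 9.45 at 20 mg/kg and 8.68 to 8.95 in vehicle. The catalytic subunit gene Gclc stood at −0.40 ± 0.13 (adjusted p = 0.103), and a second Gclc probe set fell, at −0.58 ± 0.14 (adjusted p = 0.0164). Other textbook NRF2 targets were not called at this dose: Nqo1 at 0.33 ± 0.18 (adjusted p = 0.422), Hmox1 at 0.19, Srxn1 at −0.32 and Txnrd1 at −0.26. The aflatoxin aldehyde reductase Akr7a3 narrowly missed, at 0.78 ± 0.22 (adjusted p = 0.0544). Its replicate 5 read 8.0 and the other dosed arrays 9.02 to 9.26, against 7.68 to 8.58 in vehicle. Nfe2l2 itself, chosen after its values were seen, stood at −0.11 ± 0.11 (adjusted p = 0.728). Of 17 markers of altered hepatic foci 6 rose and none fell, namely Gstp1, Abcc3, Gsta3, Epcam, Gpx2 and Aldh1a1. Of these, Gstp1, Abcc3, Gsta3 and Gpx2 were already counted as NRF2 targets, so the 2 counts are not separate. Ggt1 (0.03) and Afp (−0.16) were not called. In the supply of glutathione and thioredoxin, 2 of 19 genes rose, Gpx2 and Gclm, both already counted as NRF2 targets. The 1 that fell was Cbs, which makes the cysteine precursor cystathionine (−0.39 ± 0.09). Its call was lost in 2 of the 10 fits that each left out 1 array (adjusted p up to 0.0712). These counts rest on 1 or 2 genes, where 1.74% of all genes rose and 1.6% fell.

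**Figure D2:**
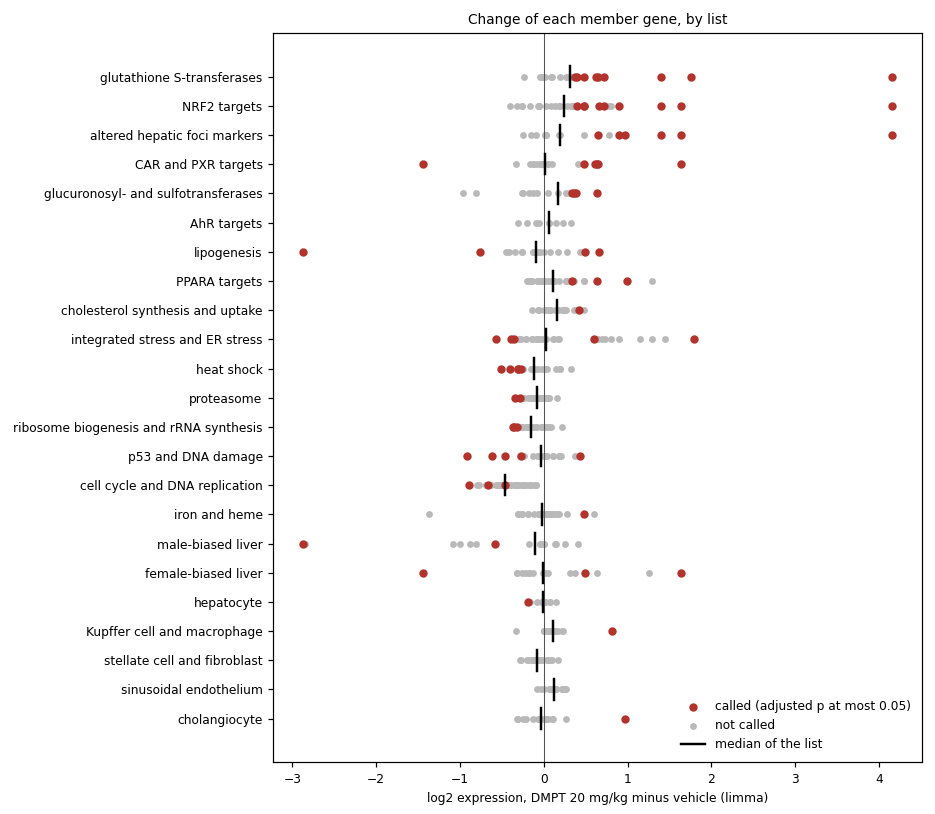
Change of each measured gene at 20 mg/kg DMPT against vehicle on the log2 scale, with 1 row per list, called genes in red, others in grey and the list median as a black bar. The called transferases all lie right of zero, up to 4.16, and all 42 cell cycle genes lie left of it with 3 called.

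Other large rises came from scattered functions. H19, an imprinted long noncoding RNA that is abundant in fetal liver, read 9.02, 10.07, 10.08, 9.89 and 9.38 at 20 mg/kg, against 6.61, 5.09, 8.63, 6.21 and 6.68 in vehicle. Vehicle replicate 3 was the highest of its group, yet the groups did not overlap and the difference was 3.04 ± 0.53 (adjusted p = 0.00102). It was the single rise among 17 fetal and imprinted genes, where its neighbour Igf2 stood at −0.05 and Afp at −0.16. Ddit4, an inhibitor of mTORC1 induced by several stresses, rose by 1.79 ± 0.39, with replicate 1 at 5.43 inside the vehicle range of 4.61 to 6.08 and the other dosed arrays at 6.97 to 7.97. Arrdc3, an arrestin-domain gene, rose by 1.06 ± 0.17 and a second probe set gave 0.99 ± 0.17. Rps27l, a ribosomal protein paralog, rose by 1.02 ± 0.20, with 6.03 to 6.48 at 20 mg/kg and 5.11 to 5.49 in vehicle. Cox5a, a subunit of cytochrome c oxidase, rose by 0.98 ± 0.21 (5.86 to 6.33, against 4.81 to 5.34 in vehicle). Acsm2, a medium-chain acyl-CoA synthetase, rose by 1.00 ± 0.20. The faint Zbtb41 (1.13 ± 0.27) and Tsx (0.89 ± 0.23) rose too. The call of Zbtb41 was lost in 4 of the 10 fits that each left out 1 array (adjusted p up to 0.0681, without 20 mg/kg replicate 5), and that of Tsx in 4 as well (up to 0.0837, without 20 mg/kg replicate 4).

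A tight rise of moderate size was that of Dap, which encodes death-associated protein and was chosen, with Erg28, after its low p was seen. Dap read 9.11, 9.32, 9.17, 9.22 and 9.29 at 20 mg/kg, against 8.49, 8.58, 8.53, 8.36 and 8.52 in vehicle. The groups did not overlap, and the difference was 0.73 ± 0.07 (adjusted p = 2.02e-07). Erg28, a scaffold for sterol demethylation, rose by 0.64 ± 0.09 (8.19 to 8.41, against 7.39 to 7.88 in vehicle). Galnt11, which begins the O-glycosylation of proteins, rose by 0.55 ± 0.08 (7.33 to 7.64, against 6.83 to 6.92 in vehicle).

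Genes of foreign compound metabolism moved in both directions. A list of 18 genes held known targets of the receptors CAR and PXR and the receptor genes Nr1i3 and Nr1i2. Of the 18, 5 rose and 1 fell (median 0.02). The shares over all genes were 1.74% and 1.6%. Beside Abcc3 the rises included Aldh1a1, a retinaldehyde dehydrogenase (0.64 ± 0.13), Ugt2b1, a glucuronosyltransferase (0.64 ± 0.13), and the multidrug exporter Abcb1a (0.61 ± 0.17). For Abcb1a the adjusted p was 0.0429 over all arrays and 0.149 with vehicle replicate 1 left out, and a second probe set gave 0.74 ± 0.15 (adjusted p = 0.00518). The fall was Cyp3a9, which read 3.03, 2.43, 2.23, 2.24 and 2.26 at 20 mg/kg and 4.69, 3.80, 2.96, 3.89 and 4.06 in vehicle. The dosed arrays lay at the dim end of the scale, vehicle replicate 3 lay within their range, and the difference was −1.44 ± 0.27 (adjusted p = 0.00254). None of 9 genes of the aryl hydrocarbon receptor pathway, 7 targets and the receptor genes Ahr and Arnt, was called, a count that the small share of calls over all genes would also give. Cyp1a1 averaged 3.48 ± 0.47 at 20 mg/kg and 3.25 ± 0.33 in vehicle (SD, n = 5 each), and Cyp1a2 averaged 10.63 ± 0.17 at 20 mg/kg and 10.83 ± 0.17 in vehicle.

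Some glucuronidation and sulfation genes rose, and the few calls among genes for amine oxidation and conjugation went in both directions. Where 1.74% of all genes rose and 1.6% fell, 4 of 17 genes for glucuronidation and sulfation rose and none fell (median 0.17). They were the transferases Ugt2b1, Ugt2b10 (0.36 ± 0.09) and Sult1c2 (0.39 ± 0.11), and Ugdh (0.34), which makes the sugar donor and is named outside the rule. Of 16 genes for amine oxidation and conjugation (median −0.01), Fmo1 rose by 0.50 ± 0.11 and Nat8 and Nnmt fell. These counts rest on 1 or 2 genes. Fmo1, a flavin monooxygenase that oxidises tertiary amines, read 9.54 to 9.80 at 20 mg/kg and 8.82 to 9.41 in vehicle without overlap. Fmo5 stood at 0.87 ± 0.30 (adjusted p = 0.124). Nat8, which acetylates cysteine conjugates in the last step to mercapturic acids, fell by 0.51 (SE 0.13), and Nnmt, which methylates nicotinamide, fell by 0.40 (SE 0.10). Leaving out 1 array ended the calls of Ugt2b10, Sult1c2, Nat8 and Nnmt in 5, 7, 6 and 5 of the 10 fits, with adjusted p up to 0.107, 0.157, 0.101 and 0.0872.

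Fatty acid desaturation genes moved in opposite directions. Scd, the stearoyl-CoA desaturase that makes monounsaturated fatty acids, read 5.18, 4.85, 4.72, 4.90 and 5.55 at 20 mg/kg, against 8.47, 10.63, 6.39, 7.81 and 6.30 in vehicle. The vehicle arrays were widely spread and the dosed arrays tight and lower, with no overlap (−2.88 ± 0.56, adjusted p = 0.00336). The desaturases of polyunsaturated fatty acids rose, Fads2 by 0.66 ± 0.11 (10.77 to 11.15, against 10.01 to 10.60 in vehicle) and Fads1 by 0.49 ± 0.07 (11.45 to 11.62, against 10.78 to 11.31 in vehicle). Thrsp, a lipogenic gene driven by thyroid hormone and carbohydrate, fell by 0.76 (SE 0.18), and 2 more of its probe sets fell by 0.65 and 0.70. These were the 4 calls among 23 lipogenesis genes (median −0.10), where Fasn stood at −0.34, Acaca at −0.10 and Srebf1 at −0.04. Among all genes 1.74% rose and 1.6% fell. For Thrsp the adjusted p was 0.0153 over all arrays and 0.0593 with vehicle replicate 2 left out.

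Of 29 PPARA targets 3 rose and none fell (median 0.10), where 1.74% of all genes rose, and the counts for the other lists in this paragraph rest on 1 or 2 genes. Aqp7, a glycerol channel, rose by 0.99 ± 0.22 with 4.02 to 4.87 at 20 mg/kg and 2.8 to 4.10 in vehicle. Ehhadh, a peroxisomal beta-oxidation enzyme, rose by 0.64 ± 0.16, with an adjusted p of 0.0291 that reached 0.0978 without 20 mg/kg replicate 2. Cpt1a (0.34), the mitochondrial fatty acid gate, was the third and is named outside the rule. The Cyp4a genes, the usual rodent markers of PPARA activation, were not called, Cyp4a1 standing at −0.21 and Cyp4a3 at −0.14. Apoa4, an apolipoprotein of triglyceride-rich particles, fell by 0.91 (SE 0.24), a call lost in 7 of the 10 fits without 1 array (adjusted p up to 0.108, without vehicle replicate 4). Among 20 genes of cholesterol synthesis and uptake only Stard4, a sterol carrier, was called (0.42 ± 0.10), while 16 of the 20 lay above zero. The call of Stard4 was lost in 2 of the 10 fits without 1 array (adjusted p up to 0.0587) and with quantile normalization (0.0525). In glucose metabolism 2 of 20 genes rose, Pck2 and Gpt, each by 0.48 (SE 0.11 and 0.13). Pck2 lost its call in 2 and Gpt in 6 of the 10 fits without 1 array (adjusted p up to 0.0602 and 0.116), and both with the beta-actin covariate (0.0769 and 0.151).

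Few genes with sex-biased expression in rat liver were called, and some of them were spread widely between arrays. Of 16 male-biased genes 2 fell, Mup5 and Cyp2c22, and of 17 female-biased genes 2 rose and 1 fell. These counts rest on 1 or 2 genes each, where 1.74% of all genes rose and 1.6% fell. Mup5, a urinary pheromone-binding protein, read 6.98, 3.37, 3.29, 3.18 and 3.14 at 20 mg/kg and 8.20, 8.84, 4.25, 6.62 and 6.4 in vehicle. Its replicate 1 lay within the vehicle range and the other dosed arrays below it, and the difference of −2.87 ± 0.76 (adjusted p = 0.0338) missed the threshold with vehicle replicate 2 left out (adjusted p = 0.113). Its probe set is of a kind that can read related transcripts, and 2 dim probe sets of the gene gave −0.24 (adjusted p = 0.389) and −0.43 (adjusted p = 0.0244). Obp3, a related lipocalin, had the same arrays apart, at 6.59 in replicate 1 and 2.22 to 2.46 in the other dosed arrays, against 2.72 to 9.21 in vehicle, and was not called (−2.85 ± 0.92, adjusted p = 0.0981). Cyp2c11, the main male-specific P450, averaged 10.67 ± 0.86 at 20 mg/kg and 11.55 ± 0.47 in vehicle, and the female-specific Cyp2c12 averaged 9.50 ± 0.81 at 20 mg/kg and 8.25 ± 1.05 in vehicle (SD, n = 5 each), neither called (adjusted p = 0.271 and 0.15). None of 18 growth hormone signalling genes was called, a count that the small share of calls over all genes would also give. Cyp2c22, which is outside the naming rule, fell by 0.58.

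Chaperone genes of the cytosol and the endoplasmic reticulum were among the falls. Of 19 heat shock genes 5 fell and none rose (median −0.12), where 1.6% of all genes fell. Stip1, which hands client proteins from HSP70 to HSP90, read 5.87 to 6.08 at 20 mg/kg and 6.24 to 6.74 in vehicle (−0.51 ± 0.10, adjusted p = 0.00474). Hsph1, an exchange factor for HSP70, fell by 0.41 (SE 0.09) and the small heat shock gene Hspb8 by 0.31 (SE 0.07). The call of Hspb8 was lost in 2 of the 10 fits without 1 array (adjusted p up to 0.0575). Hsp90ab1 and Hspe1, which are outside the naming rule, fell by 0.30 and 0.27. The HSP90-bound immunophilin genes Fkbp4 (−0.52 ± 0.09) and Ppid (−0.72 ± 0.11), chosen after their values were seen, fell too. Ppid read 7.82 to 8.0 at 20 mg/kg and 8.30 to 9.05 in vehicle. Hspa1a, the inducible HSP70 gene, stood at 0.20 and Dnajb1 at −0.07.

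Of 31 genes of the integrated stress response and the endoplasmic reticulum 2 rose and 3 fell (median 0.03). Both counts rest on few genes, where 1.74% of all genes rose and 1.6% fell. The reticulum chaperones Hspa5 (BiP) and Hsp90b1 fell by 0.36 (SE 0.07) and 0.39 (SE 0.07), and Creld2, a further resident of that compartment, by 0.57 (SE 0.09). All 3 were chosen after their values were seen, and for each the dosed arrays lay below the vehicle arrays, as in Hspa5 with 10.46 to 10.66 against 10.85 to 10.97 in vehicle. Other reticulum genes, such as Pdia6 (−0.03) and Xbp1 (0.12), were not called and are named outside the rule. Ddit4 rose, as did Atf4, the transcription factor of the integrated stress response (0.60 ± 0.17, adjusted p = 0.0459, and 0.166 without 20 mg/kg replicate 2). Known targets of Atf4 were uneven between dosed arrays. Atf3 read 2.99, 6.74, 3.53, 5.81 and 4.63 at 20 mg/kg, against 2.98 to 3.6 in vehicle (1.44 ± 0.46, adjusted p = 0.0962). Chac1, a glutathione-degrading enzyme, read 4.43, 8.35, 6.12, 6.74 and 6.59, against 4.86 to 6.00 in vehicle (adjusted p = 0.115). Replicate 2 was the highest dosed array and replicate 1 the lowest for Atf3, Chac1, Ddit4, Atf4, Trib3 and Fgf21. In Fgf21, a fasting hormone of the liver, they read 9.43 and 4.71, against 5.03 to 7.36 in vehicle.

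Of 22 genes of the p53 and DNA damage response 1 rose and 4 fell (median −0.04), against 1.74% and 1.6% of all genes. Phlda3, a p53-induced repressor of AKT signalling, read 4.91, 4.73, 4.65, 4.77 and 4.76 at 20 mg/kg, against 5.67, 5.43, 5.82, 5.91 and 5.61 in vehicle. The groups were far apart for their spread (−0.92 ± 0.14, adjusted p = 0.000239). Cdkn1a, the p21 inhibitor of cyclin-dependent kinases, fell by 0.62 (SE 0.15) and by 0.74 in a second probe set. Mgmt, which removes alkyl groups from guanine, fell by 0.46 (SE 0.12), and Aen, a nuclease outside the naming rule, by 0.28. Sesn1, a stress-inducible sestrin, rose by 0.43 ± 0.11. Mdm2 (−0.07) and Ccng1 (−0.29), common reporters of p53 activity, were not called. The counts cover the 22 listed genes alone, and Rps27l, whose rise is given above, is not among them. The calls of Cdkn1a, Mgmt and Sesn1 were lost in 5, 4 and 7 of the 10 fits without 1 array (adjusted p up to 0.0730, 0.0723 and 0.0985).

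Cell cycle and DNA replication genes had negative changes throughout, although few passed the test. Of 42 measured, 3 fell and none rose, where 1.6% of all genes fell. All 42 changes lay below zero with a median of −0.46, against 53.8% of all genes below zero and the median of −0.01. The 3 were helicase subunits. Mcm5 read 4.08, 4.21, 4.19, 4.15 and 4.09 at 20 mg/kg, against 4.21, 4.62, 5.19, 4.96 and 5.04 in vehicle. The dosed arrays were tight, and their highest equalled vehicle replicate 1 to 2 decimals without passing it (−0.66 ± 0.13, adjusted p = 0.00417). Mcm7 read 5.62 to 5.80 at 20 mg/kg and 5.90 to 6.44 in vehicle (−0.47 ± 0.10), and both were chosen after their values were seen. Mcm6 fell by 0.90 (SE 0.23), a call lost in 6 of the 10 fits without 1 array (adjusted p up to 0.115, without vehicle replicate 3). All 6 helicase subunit genes, Mcm2 to Mcm7, lay between −0.90 and −0.24. Cdk1, the mitotic kinase, read 4.93, 5.46, 5.71, 5.84 and 5.02 at 20 mg/kg and 5.48, 6.45, 6.4, 6.22 and 6.41 in vehicle, with vehicle replicate 1 down among the dosed arrays (−0.80 ± 0.30, adjusted p = 0.167). Aurkb (−0.78 ± 0.28), Hmmr (−0.69 ± 0.28) and Top2a (−0.56 ± 0.18) were not called either. Ccnd1, the cyclin that opens G1, fell by 0.81 (SE 0.19), and its 2 other probe sets by 0.71 and 0.66. The call of Ccnd1 was lost in 2 of the 10 fits without 1 array (adjusted p up to 0.0535). Mybl1, a MYB family regulator, fell by 0.89 (SE 0.20), with 2.52 to 2.70 at 20 mg/kg and 3.27 to 3.74 in vehicle. With the beta-actin gauge as a covariate 13 of the 42 were called lower, with array weights 8, and without vehicle replicate 1 5, and the count was 2 to 4 under the other alternatives.

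Several falls lay outside these groups. Urah and Urad, the enzymes that follow urate oxidase on the path to allantoin, fell together and were chosen for their low p. Urah read 9.46, 9.49, 9.45, 9.47 and 9.52 at 20 mg/kg, against 10.11, 10.10, 10.06, 9.97 and 10.03 in vehicle (−0.58 ± 0.06, adjusted p = 2.44e-07). Urad read 8.09 to 8.47 at 20 mg/kg and 8.84 to 9.21 in vehicle (−0.75 ± 0.09, adjusted p = 1.2e-05). In both genes every dosed array lay below every vehicle array. Oat, the ornithine aminotransferase of hepatocytes around the central vein, read 8.04 to 8.67 at 20 mg/kg and 8.72 to 10.27 in vehicle (−1.14 ± 0.20, adjusted p = 0.00136), and the vasopressin receptor gene Avpr1a fell by 0.83 (SE 0.16). They were the 2 calls among 20 pericentral genes, of which Glul stood at 0.10 and Cyp2e1 at 0.15. Actg1, gamma actin, fell by 0.83 (SE 0.13), but a dimmer probe set gave −0.31 (adjusted p = 0.185). Trim36, a ubiquitin ligase, read 2.22 to 3.5 at 20 mg/kg and 4.10 to 4.26 in vehicle (−1.27 ± 0.32, adjusted p = 0.0222, and 0.0704 without 20 mg/kg replicate 1). Serpinb9b, a protease inhibitor, fell by 1.58 (SE 0.37, adjusted p = 0.0153, and 0.0596 without 20 mg/kg replicate 1). The complement gene C6 fell by 0.83 (SE 0.20, adjusted p = 0.0220, and 0.0826 without vehicle replicate 2). Cyfip2, which binds actin regulators, fell by 0.77 (SE 0.14), and Ppp1r14b, an inhibitor of protein phosphatase 1 chosen for its low p, by 0.53 (SE 0.07). A dimmer probe set of Ppp1r14b lay on the other side of zero, at 0.46 (adjusted p = 0.0717).

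Small falls were also called in protein turnover and ribosome assembly. Over all genes 1.6% fell and 1.74% rose, and the counts in this paragraph, like those for pericentral genes above, rest on 1 to 3 genes a list. Of 32 proteasome genes 2 fell, Psmb7 by 0.35 (SE 0.09) and Psmb5 by 0.29 (SE 0.06), and 8 lay above zero. Dimmer probe sets of Psmb5 gave 0.02 and −0.06. Of 27 ribosome biogenesis genes 3 fell, Mybbp1a by 0.36 (SE 0.09), Ebna1bp2 by 0.35 (SE 0.09) and Fbl, the rRNA methyltransferase fibrillarin, by 0.31 (SE 0.08), with a list median of −0.16. Psmb7, Mybbp1a, Ebna1bp2 and Fbl lost their calls in 3, 1, 6 and 7 of the 10 fits without 1 array. In iron metabolism Aco1, an iron-sensing regulator of the transferrin receptor and ferritin mRNAs, was the single call of 29 genes. It rose by 0.48 ± 0.09 (8.62 to 8.88, against 8.15 to 8.43 in vehicle). Hamp, the hormone hepcidin that lowers iron export, read 8.55 to 10.40 at 20 mg/kg and 10.64 to 11.32 in vehicle. Every dosed array was below every vehicle array, but the adjusted p was 0.101.

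Liver cell type markers gave few calls, although 14 of 15 Kupffer cell and macrophage genes (median 0.11) and 15 of 17 sinusoidal endothelium genes (median 0.13) lay above zero. The summed linear signal of 15 Kupffer cell and macrophage genes ran from 2452 to 3096 at 20 mg/kg and from 1861 to 2617 in vehicle, and 1 of them was called. That was Cd14, the lipopolysaccharide co-receptor, which read 8.76 to 9.16 at 20 mg/kg and 7.82 to 8.58 in vehicle (0.81 ± 0.17, adjusted p = 0.00651). Clec4f (0.12) and Cd163 (0.04), which define resident and tissue macrophages, were not called. Of 17 bile duct genes Epcam alone was called, reading 6.37, 6.09, 6.20, 6.38 and 6.25 at 20 mg/kg and 4.97, 5.76, 5.26, 5.20 and 5.23 in vehicle (0.97 ± 0.13, adjusted p = 8.82e-05). Krt7 stood at −0.32 and Krt19 at −0.12, and the summed signal of the 17 ran from 1181 to 1334 at 20 mg/kg and from 1192 to 1369 in vehicle. In whole liver, a change in the number of cells of a type and a change in RNA per cell cannot be told apart. No marker of lymphocytes (18 genes), neutrophils (8), stellate cells (22) or sinusoidal endothelium (17) was called. With 1.74% of all genes higher and 1.6% lower, lists of these sizes would often give few calls or none. Hepatocyte genes summed to 86650 to 90090 at 20 mg/kg and 88530 to 92050 in vehicle, with Serpina1 alone called, at −0.18 ± 0.05, a call that no fit without 1 array kept.

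Against the neighbouring doses 20 mg/kg was hard to tell apart gene by gene. Between 20 and 6 mg/kg 5 probe sets were called (0.0161%), with Gstp1 (2.64, 95% interval 1.94 to 3.34, adjusted p = 0.00032), Galnt11 (0.42, adjusted p = 0.0477) and Fgf7 (−0.38) as the named genes. Fgf7 was dim, averaging 1.86 at 20 mg/kg, 2.23 at 6 mg/kg and 1.97 in vehicle, and was not called at 20 mg/kg against vehicle. Between 60 and 20 mg/kg 34 were called (0.11%), 25 higher and 9 lower at 60 mg/kg. Akr7a3 (1.57) and Nqo1 (1.03), which missed the threshold at 20 mg/kg against vehicle, were the largest of these, followed by Pbk (0.94), Top2a (0.91) and Ugt2b7 (0.88). Cyfip2 (−0.67), Emp1 (−0.62), Dio1 (−0.54), Pdgfra (−0.52) and Cldn14 (−0.41) were the largest falls. Both contrasts use the 20 mg/kg arrays and rest on few calls, which ran from 1 to 5 and from 1 to 167 when 1 array was left out.

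The course over the doses differed between gene groups. Gstp1 averaged 6.11, 6.44, 7.63, 10.27, 11.60 and 12.02 at 0, 1, 6, 20, 60 and 120 mg/kg, and Gstm1 11.39, 11.59, 11.94, 12.11, 12.29 and 12.40. Both means were higher at each further dose. H19 averaged 6.65, 7.79, 8.67, 9.69, 8.48 and 8.25 over the same doses, with its highest mean at 20 mg/kg, although 60 and 20 mg/kg were not told apart (adjusted p = 0.361). Of the 42 cell cycle genes all had a lower mean at 20 mg/kg than at 60 mg/kg, with a median difference (60 minus 20) of 0.75 and 4 of them called, Mcm5 among them (0.65, adjusted p = 0.0390). Against 6 mg/kg none was called, 24 of the 42 lay above zero and the median difference (20 minus 6) was 0.04, so the low level was not particular to 20 mg/kg. Cdk1 averaged 6.19, 5.65, 5.35, 5.39, 6.4 and 6.74 over the doses. Mcm5 averaged 4.80, 4.53, 4.49, 4.14, 4.79 and 5.18 over the doses, so the level at 60 mg/kg was close to that of vehicle. Oat averaged 9.51, 9.50, 8.69, 8.37, 7.90 and 7.4.

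**Figure D3:**
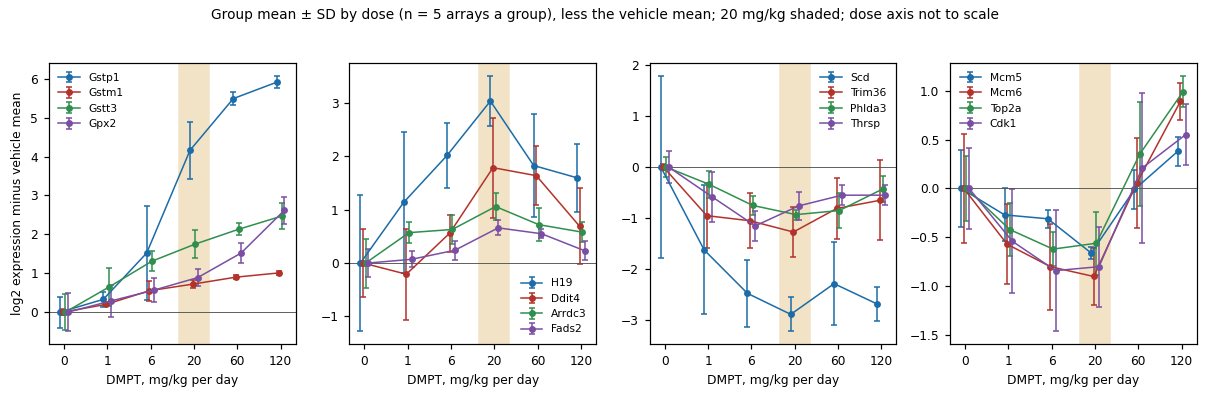
Group means with standard deviations (5 arrays a group) less the vehicle mean, on the log2 scale, at 0, 1, 6, 20, 60 and 120 mg/kg DMPT, with 20 mg/kg shaded. The means of Gstp1 and Gstm1 are higher at each further dose, those of H19 and Fads2 are highest at 20 mg/kg, and those of Mcm5 and Mcm6 are lowest there.

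The same dose of p-toluidine, which lacks both N-methyl groups, was given in a separate set of arrays with its own vehicle, so responses and not levels were compared. In this 1 pair of compounds no probe set was called for a difference between the responses (0 of 31042, 0%, limma), while 2280 had an unadjusted p under 0.05. The count was 0 to 39 over the alternatives, the 39 coming from the arrays of these 4 groups alone. For the 30 genes with the largest changes the 95% interval of the difference held zero in 23. Gstt3 responded by 1.76 to DMPT and 1.5 to p-toluidine (difference 0.26, interval −0.31 to 0.82), Scd by −2.88 and −2.50 (−0.38, −1.76 to 1.00) and Abcc3 by 1.64 and 1.65 (−0.01, −0.89 to 0.87). These intervals are wide, and they do not show that the amines act alike.

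For 7 of the 30 the interval left out zero, but none passed the adjusted threshold. The 30 were picked for large changes under DMPT, which favours a larger response to DMPT in this comparison. In 29 of the 30 the response to p-toluidine had the same sign, Rps27l being the exception. Gstp1 responded by 4.16 to DMPT and 2.36 to p-toluidine (difference 1.80, interval 0.82 to 2.79, adjusted p = 0.231). Rps27l responded by 1.02 and −0.14 (1.16, 0.68 to 1.63, adjusted p = 0.0656), the lowest adjusted p over the genes of this comparison and shared with Dhx34 and Kifc3, which were named after their values were seen. Cox5a responded by 0.98 and 0.10 (0.88, 0.37 to 1.38, adjusted p = 0.265) and Actg1 by −0.83 and −0.14 (−0.69, −1.07 to −0.31, adjusted p = 0.231). Akr7a3 leaned the other way, at 0.78 for DMPT and 1.61 for p-toluidine (−0.83, −1.51 to −0.16, adjusted p = 0.590). Of the 42 cell cycle genes 41 had a lower response to DMPT than to p-toluidine, with a median difference of −0.44, against −0.01 over all genes. Their median response was −0.46 to DMPT and 0.03 to p-toluidine, where 20 of the 42 lay below zero. None of the 42 differences was called, and over all probe sets the count was also 0 with the beta-actin gauge as a covariate.

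**Figure D4:**
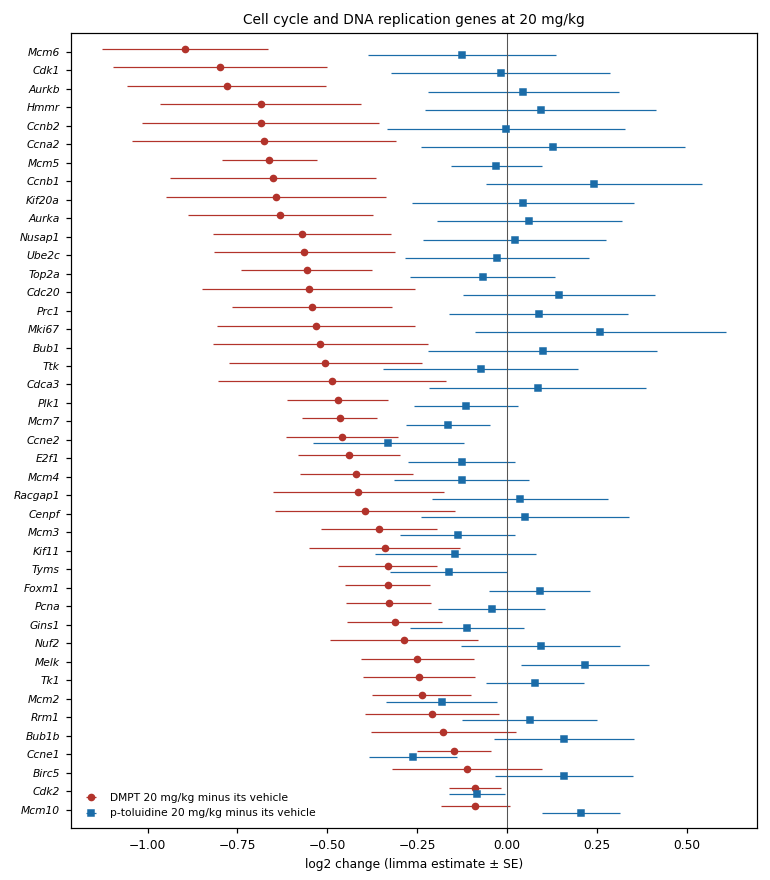
Log2 change with its standard error for 42 cell cycle and DNA replication genes at 20 mg/kg, with DMPT minus its vehicle in red and p-toluidine minus its vehicle in blue. All 42 red points lie below zero, while 20 of the 42 blue points do.

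**Figure D5:**
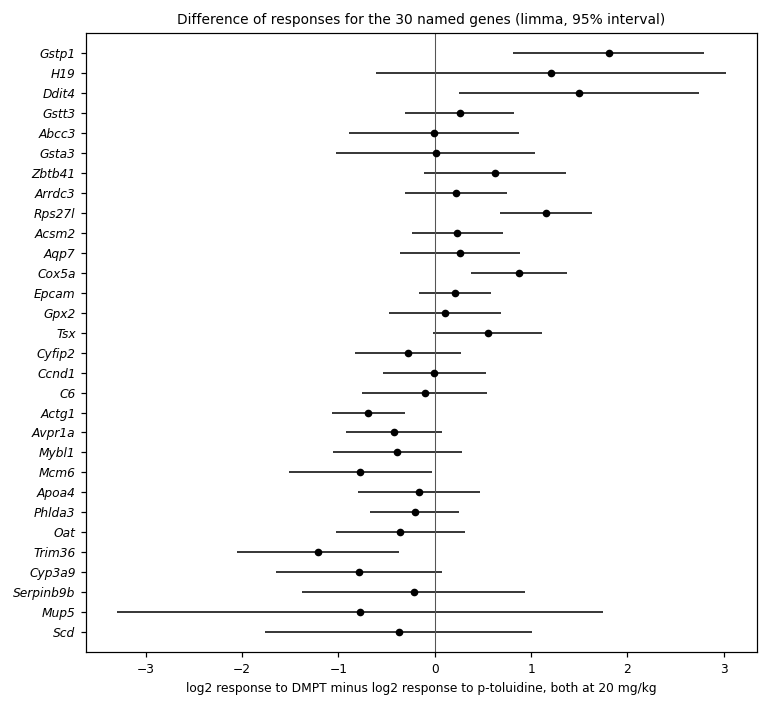
Response to DMPT minus response to p-toluidine at 20 mg/kg for the 30 named genes, on the log2 scale with 95% intervals of the limma fit. The interval holds zero for 23 genes, lies to the right of it for Gstp1, Ddit4, Rps27l and Cox5a and to the left for Trim36, Mcm6 and Actg1.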

How the data were processed

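The deposited log2 expression values per probe set were used as they stand. Per the submitters' processing notes they were made with RMA (version and settings: not given in the sources used here), and the values ran from 0.0507 to 13.9. They carry no depth, and 5 arrays a group limit the precision. Control probe sets (57) were left out and 31042 tested, with no brightness filter. Of these, 20826 had 1 symbol (20758 with a gene ID in the RefSeq table of GRCr8), 436 several and 9780 none, and only the first kind was named. A gene is represented by its probe set with the highest mean over all 60 arrays.

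The 30 DMPT arrays were fitted with 6 group means in limma 3.58.1 (R 4.3.3, eBayes), and contrasts were adjusted by Benjamini-Hochberg over all probe sets. The difference between the amines was fitted on all 60 arrays with 12 group means. The DMPT and p-toluidine arrays differ in their medians (3.54 to 3.57 in the arrays compared, 2.73 to 2.81 for p-toluidine), so no level was set across them. The design text's ORIOGEN software was not used here. The code was tested on simulated data.

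Named genes are the 15 largest called rises and falls, up to 5 members of each of 43 lists with the largest change, the 5 largest calls in each direction of the other contrasts, and the 2 probe sets on each side of the threshold. Members, lists and rules were chosen with earlier results of these data known. Alternatives included another normalization, array weights, the RNA gauge, a replicate block and leaving out each array. Same-numbered arrays of the 2 groups did not deviate together (correlations from −0.228 to 0.150), so the numbers were not taken to pair them.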

Additional observations from a re-analysis of the deposited data

Results flagged for a closer look

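Single arrays were sought in a set of 118 genes, which leaves out some genes named outside the rule. In 16 of 236 groups of 5 arrays a single array stood apart from the rest of its group by Dixon's criterion. This occurred 10 times at 20 mg/kg and 6 times in vehicle, and chance alone gives about 1 in 20. Replicate 1 at 20 mg/kg was the array in Mup5 (6.98, the others 3.14 to 3.37), Obp3 (6.59, 2.22 to 2.46), Cyp3a9 (3.03, 2.23 to 2.43), Actg1 (9.81, 10.17 to 10.25) and Stard4 (6.51, 6.72 to 6.77). For Mup5, Obp3, Cyp3a9 and Stard4 it was the dosed array nearest to the vehicle arrays, and for Actg1 the farthest from them. At 20 mg/kg the array was also replicate 5 for Akr7a3 (8.0, 9.02 to 9.26), replicate 4 for Cyp1b1 (3.06, 3.21 to 3.27) and Cbr4 (6.83, 6.97 to 7.0), replicate 2 for Hsph1 (6.83, 7.02 to 7.08) and replicate 3 for Galnt11 (7.64, 7.33 to 7.41). In vehicle, replicate 1 stood apart in Cdk1 (5.48, 6.22 to 6.45), Klf6 (4.78, 5.43 to 5.68) and Trim36 (4.26, 4.10 to 4.14). Vehicle replicate 3 did so in Cyp2c12 (10.08, 7.61 to 8.18) and Mybbp1a (6.70, 6.39 to 6.45), and vehicle replicate 4 in Cbr4 (6.85, 6.59 to 6.61).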

How the results depend on the processing

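The 810 calls became 1627 with array weights and 630 to 1158 under the other alternatives, and 472 to 666 when 1 array was left out. Rises were 67.8% of the calls with arrays centred on their median and 39.7% with the beta-actin gauge as a covariate, against 59.8%. The 192 calls of at least 1.5-fold ranged from 146 to 217, and from 147 to 201 without 1 array. With the replicate number as a block 748 probe sets were called at 20 mg/kg against vehicle. The block gave 2 calls between 20 and 6 mg/kg, 43 between 60 and 20 mg/kg, and 1 for the difference between the amines.

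Between 20 and 6 mg/kg the 5 calls became 3 with quantile normalization, the brighter probe sets alone or a trended prior, 2 with centred arrays or the covariate, and 1 without the 5 DMPT arrays of narrow spread, which were chosen after seeing the data. Without 1 array they were 1 to 5. Between 60 and 20 mg/kg the 34 became 21 on the arrays compared alone, 6 with centred arrays, 59 with the trended prior, 103 with the covariate and 77 with weights, and 1 to 167 without 1 array (167 without 60 mg/kg replicate 3). For the amines the count of 0 became 39 on the arrays compared alone, 2 with the brighter probe sets, 6 with weights and 3 without the narrow arrays, and 0 to 18 without 1 array (18 without DMPT vehicle replicate 5). The cause was not tested for any of these.

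The beta-actin 3 prime minus 5 prime control difference of −0.182 ranged from −0.226 to −0.119 without 1 array. It was −0.226 without 20 mg/kg replicate 2 (exact permutation p = 0.0159) and −0.213 without vehicle replicate 5 (p = 0.0476). A set of 118 genes was followed through the alternatives. It leaves out some genes named above, such as Gstm3 and Ptgr1, and holds some that are not. Of the 118, 84 were called, 46 of them in all 10 fits without 1 array, 55 in all other alternatives and 44 in every alternative. With the beta-actin covariate 18 of the 84 were no longer called (adjusted p from 0.0512 to 0.192): Gsta3, Zbtb41, Mup5, Serpinb9b, Abcb1a, Ugt2b10, Sult1c2, Nnmt, Ehhadh, Pck2, Gpt, Sesn1, Klf6, Apcs, Serpina1, Slc25a15, Abhd8 and Cbr4. With it 6 more were called lower, among them Cdk1, Aurkb and Top2a (0.0369, 0.0114 and 0.0145). Pdgfra, at 0.07 and not called, turned to −0.025 with the covariate and ran from −0.044 (without vehicle replicate 1) to 0.149 without 1 array. With 5 arrays a group, dim probe sets, such as those of Cyp3a9 and Trim36, limit what can be told of smaller changes.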
